A study of Homo sapiens and Mus musculus with 13 samples.

Results

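This comparison covered 7 of the 13 RNA-Seq libraries of the study, the 7 made from the human breast cancer line MDA-MB-231. The 4 lines that carried a guide RNA against TRIM11 were set against the 3 lines that did not. The lines with a TRIM11 guide were TRIM11-KD1 and TRIM11-KD2, which carried TRIM11 sgRNA1 or sgRNA2, and the lines DKD1 and DKD2, in which the same guides were combined with KDM5C sgRNA2. The lines without were Control, which expressed a guide against GFP, and KDM5C-KD1 and KDM5C-KD2, made with KDM5C sgRNA1 and sgRNA2. All 7 lines came from the same parental line, expressed Cas9 from a lentiviral vector and had been selected with puromycin, and each gave 1 library. The lines are repeats of a target gene through different guides and not repeat cultures of 1 line. The p-values therefore rest on the spread between lines. Each of the 2 TRIM11 guides was used in 2 lines, and KDM5C sgRNA2 in KDM5C-KD2, DKD1 and DKD2. The main fit had no term for the single guide, so it treated lines that share a guide as independent. A KDM5C guide was present in 2 of the 4 lines and in 2 of the 3, and a term for it was kept in the fits reported here unless stated.

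TRIM11 is a tripartite motif protein with a RING domain, an E3 ligase that attaches ubiquitin to its substrates and marks many of them for the proteasome. KDM5C removes methyl groups from lysine 4 of histone H3 and is known to restrain enhancer activity. The study placed TRIM11 upstream of the stability of KDM5C in breast cancer cells, and the lines asked what is transcribed when the ligase, the demethylase or both are targeted. MDA-MB-231 is a triple-negative, mesenchymal-like line.

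TRIM11 mRNA itself checks the labels only in part. The TRIM11 gene (hg19 chr1:228581374-228594536) was at 12.6, 13.6 and 14.2 FPKM in Control, KDM5C-KD1 and KDM5C-KD2, and at 13.4, 10.6, 16.1 and 9.38 FPKM in TRIM11-KD1, TRIM11-KD2, DKD1 and DKD2. Values of a gene are given in this order of lines from here on, in FPKM, the fragments mapped to a gene scaled by transcript length and library size. Both lines with sgRNA2 were below the 3 lines without a TRIM11 guide, and the libraries labelled TRIM11-KD1 and DKD1, which carried sgRNA1, were not. The difference over the 4 and 3 lines was -0.13 ± 0.18 on the log2(FPKM + 1) scale (limma with a KDM5C term, SE, adjusted p = 0.832), and an exact two-sided permutation test over 35 arrangements gave p = 0.486, where the smallest p this design allows is 0.0571. Protein was not measured here, and the study's methods state that its knockdown lines were checked by western blotting. KDM5C mRNA was at 30.3, 20.6 and 21.4 FPKM in the first 3 lines and 29.8, 28.4, 18.8 and 22.7 FPKM in the other 4, with all 4 lines that carried a KDM5C guide below the 3 that did not.

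Markers of the labelled cell line were present in all 7 libraries. All 10 markers of mesenchymal-like MDA-MB-231 cells averaged at least 1 FPKM, and their summed level was 4316 to 5237 FPKM with a TRIM11 guide and 4631 to 4975 without. Of 10 luminal markers 7 passed, with sums of 279 to 402 FPKM with a TRIM11 guide and 306 to 337 without. Of 9 blood cell markers only CD14 passed 1 FPKM, and 4 were at 0 in all 7 libraries, while none of 6 endothelial markers passed. The first principal component held 32.6% of the variance and set KDM5C-KD2 apart, at 44.96 against -16.7 to 6.54 for the other 6 libraries. The 2 closest pairs were TRIM11-KD2 with DKD2, which share sgRNA2 (r = 0.982), and TRIM11-KD1 with Control (r = 0.980).

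Of 11775 genes with a mean of at least 1 FPKM, 1038 (8.82%) did not overlap between the 4 and the 3 lines. In 491 of them (4.17%) every line with a TRIM11 guide was above every line without, and in 547 (4.65%) every one was below. Most of these differences were small, with a median size of 0.32 on the log2 scale against 0.13 over all genes, and 178 of the 1038 reached 1.5-fold. The lines were at least 1.5 times apart at their nearest in 16 genes (0.136%), 12 of them higher (0.102%) and 4 lower (0.0340%). No gene had a limma adjusted p under 0.05. Before adjustment 1272 genes (10.8%) had a p under 0.05, 618 of them higher (5.25%) and 654 lower (5.55%). A fold of 1.5 together with an unadjusted p under 0.05 was met by 345 genes (2.93%), with 185 higher (1.57%) and 160 lower (1.36%), and 173 of the 345 also did not overlap. All values below are therefore descriptions of 7 lines, and no gene named here passed the test of the TRIM11 guide over all genes.

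**Figure D1:**
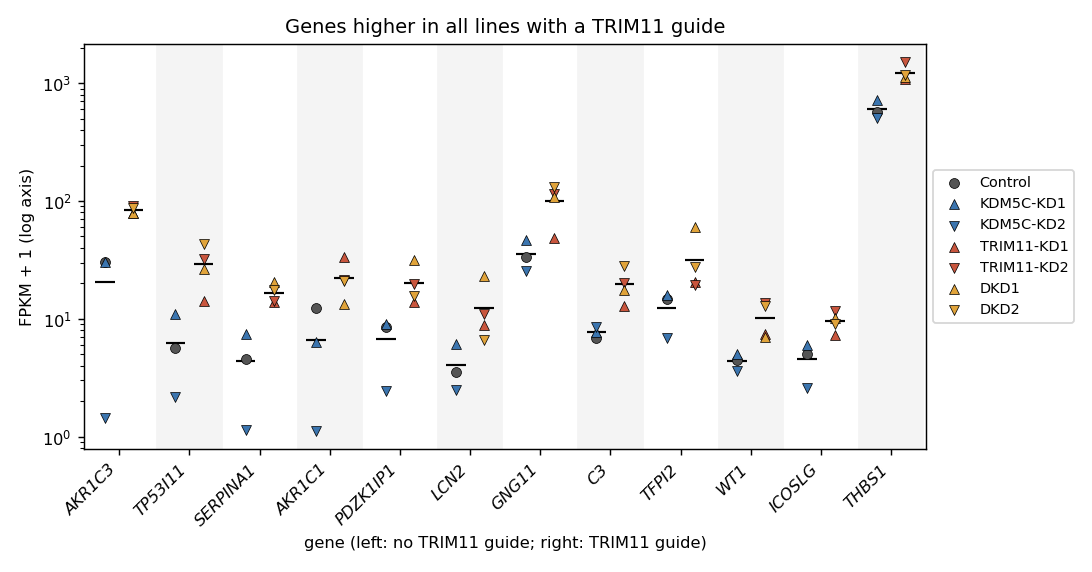
Level of the 12 genes with the largest higher difference among those that do not overlap (x axis), as FPKM + 1 on a log axis (y axis). Points are single libraries, the left points of a gene are the 3 lines without and the right points the 4 lines with a TRIM11 guide, and bars are means; KDM5C-KD2 is the lowest library for all of these genes except C3.

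The 12 genes with the largest higher difference included 2 aldo-keto reductases, the protease inhibitors SERPINA1 and TFPI2, the complement gene C3 and the matrix gene THBS1. AKR1C3, which reduces ketosteroids and prostaglandins, was at 29.5, 29.2 and 0.435 FPKM in the 3 lines without the guide and at 78.9, 89.4, 77.6 and 85.6 FPKM in the 4 with it. The 4 lines lay close together while KDM5C-KD2 was nearly without the transcript. The log2 difference was 2.78 ± 0.98 (SE) and became 1.46 without KDM5C-KD2. AKR1C1, its neighbour on chromosome 10 that inactivates progesterone, was at 11.5, 5.42 and 0.123 against 32.5, 20.4, 12.5 and 20.1 FPKM, with DKD1 only just above Control and KDM5C-KD2 again near 0 (log2 difference 2.03 ± 0.62, 1.25 without KDM5C-KD2). These reductases are closely similar in sequence, so reads may be shared between them.

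SERPINA1, the inhibitor of neutrophil elastase, was at 3.60, 6.48 and 0.145 against 12.9, 13.0, 19.6 and 16.7 FPKM, so that the lowest line with a guide had 1.98 times the highest line without. Its log2 difference was 2.26 ± 0.60, and 1.48 without KDM5C-KD2. TFPI2, an inhibitor of serine proteases in the matrix, was at 13.6, 14.9 and 5.85 against 19.6, 18.3, 59.0 and 26.6 FPKM. The DKD1 line stood well above the others, and the 2 TRIM11-KD lines were only modestly above KDM5C-KD1 (log2 difference 1.36 ± 0.44, 0.90 without KDM5C-KD2).

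C3, the central component of complement, was at 5.84, 6.76 and 7.52 FPKM without and 11.9, 19.1, 16.6 and 27.3 FPKM with a TRIM11 guide, means of 6.70 ± 0.841 (SD, n = 3) and 18.7 ± 6.44 (SD, n = 4). The 3 lines without the guide lay close together, and KDM5C-KD2 was the highest of them. The log2 difference of 1.37 ± 0.21 stayed between 1.18 and 1.52 when any 1 library was left out. LCN2, a siderophore-binding protein of the acute phase, was at 2.56, 5.08 and 1.52 against 7.79, 10.01, 22.0 and 5.63 FPKM, and DKD2 exceeded KDM5C-KD1 by little. Its log2 difference was 1.58 ± 0.46.

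The other higher genes of this group code for membrane, signalling and transcription proteins. TP53I11, a gene first described as induced by p53, was at 4.65, 10.02 and 1.18 against 13.2, 31.4, 25.4 and 42.0 FPKM, a log2 difference of 2.44 ± 0.58. GNG11, a gamma subunit of G proteins, was at 32.5, 45.6 and 24.6 against 47.9, 113, 107 and 131 FPKM, with TRIM11-KD1 much nearer to KDM5C-KD1 than to the other 3 lines. PDZK1IP1, a small membrane protein, was at 7.58, 8.13 and 1.46 against 12.9, 18.7, 30.4 and 14.6 FPKM, 1.59 times apart at the nearest lines. ICOSLG, the ligand of the T cell costimulator ICOS, was at 4.02, 5.003 and 1.62 against 6.33, 10.6, 9.201 and 8.09 FPKM, and WT1, a zinc-finger transcription factor, at 3.46, 4.05 and 2.62 against 6.40, 12.6, 5.96 and 11.7 FPKM. The WT1 levels of both sgRNA2 lines were about the same and above those of both sgRNA1 lines. Without KDM5C-KD2, the log2 difference of PDZK1IP1 went from 1.71 to 1.11.

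THBS1, the matrix glycoprotein thrombospondin-1 (hg19 chr15:39873280-39891667), was by far the most abundant gene of the group. It was at 565, 721 and 506 FPKM without and 1087, 1499, 1128 and 1177 FPKM with a TRIM11 guide, means of 597 ± 111 (SD, n = 3) and 1223 ± 188 (SD, n = 4). All 4 lines were at least 1.51 times above all 3, and the log2 difference was 1.18 for TRIM11-KD against Control and 0.93 for DKD against KDM5C-KD. The limma log2 difference was 1.03 ± 0.17, with 0.93 to 1.18 over the fits that left out 1 library. Among the genes with the smallest p were also TNFSF9, the 4-1BB ligand, at 4.32, 5.52 and 5.30 against 6.89, 9.25, 11.1 and 12.3 FPKM, and CCDC74A, a coiled-coil protein, at 1.18, 1.27 and 0.761 against 2.25, 3.39, 4.01 and 4.11 FPKM. TNFSF9 had a log2 difference of 0.89 ± 0.13 and the smallest unadjusted limma p of all genes higher with the guide, 0.000180, which became 0.442 after adjustment.

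Promoter sequence was looked at for the 12 higher and 12 lower genes because NF-kappaB and NRF2 targets were among the lists compared. The RefSeq windows of GRCh38.p14 cover 250 bases before to 50 after each gene's start, and 11 of the 12 higher and 7 of the 12 lower genes had one. A match to the 10-base NF-kappaB consensus on either strand was present in 3 of the 11 higher and 0 of the 7 lower genes. The 250 bases before the start of these 3 genes are shown 5′ to 3′ on the strand of the gene, with the match in capitals. The match is a description of the letters and binding was not measured.
PDZK1IP1 (GRCh38.p14 chr1:47190037-47190286, minus strand): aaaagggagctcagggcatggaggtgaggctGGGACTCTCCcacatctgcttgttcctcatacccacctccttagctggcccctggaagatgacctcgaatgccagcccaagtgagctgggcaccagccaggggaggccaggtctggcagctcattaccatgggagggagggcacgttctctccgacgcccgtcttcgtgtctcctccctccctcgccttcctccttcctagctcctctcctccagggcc
LCN2 (GRCh38.p14 chr9:128149203-128149452, plus strand): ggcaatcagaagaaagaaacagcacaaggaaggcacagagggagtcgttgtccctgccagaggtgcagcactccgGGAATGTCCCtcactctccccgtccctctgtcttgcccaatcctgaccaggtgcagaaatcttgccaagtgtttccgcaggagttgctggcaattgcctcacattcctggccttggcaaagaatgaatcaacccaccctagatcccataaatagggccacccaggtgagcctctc
TFPI2 (GRCh38.p14 chr7:93890754-93891003, minus strand): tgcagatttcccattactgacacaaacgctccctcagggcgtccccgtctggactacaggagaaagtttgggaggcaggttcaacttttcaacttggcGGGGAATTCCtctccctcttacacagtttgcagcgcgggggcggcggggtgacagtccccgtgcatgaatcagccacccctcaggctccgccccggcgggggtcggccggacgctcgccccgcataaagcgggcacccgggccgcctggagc
The match began 219, 175 and 152 bases before the start of PDZK1IP1, LCN2 and TFPI2. A match was held by 5.72% of all 27305 promoters of this length and by 6.65% of the 8562 tested genes with a window. The share was 11.3% over the 353 genes that did not overlap and were higher, and 6.50% over the 400 that were lower. The core of the antioxidant response element, TGACNNNGC, was in 15.5% of the tested genes, 14.7% of the higher and 14.5% of the lower genes, and in 0 of the 11 higher and 2 of the 7 lower genes above (SSX1 and ZG16B). The AP-1 site TGANTCA, which can share its first bases with the antioxidant core, was in 4.39%, 4.53% and 4% of these, and in 2 of the 11 higher (LCN2 and TFPI2) and 1 of the 7 lower genes (TMEM156).

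The list of NRF2 targets and aldo-keto reductases, which detoxify electrophiles and keep the cell reduced, had counts above those of all genes. It holds AKR1C3 and AKR1C1, which are also among the 12 higher genes above. Lists and members were chosen with earlier results of these data known, so the counts are no independent evidence. Of the 28 tested members of this list 7 (25%) did not overlap and were higher. None was lower, and the shares over all genes were 4.17% and 4.65%. An unadjusted limma p under 0.05 was reached by 14 members, all higher, against 5.25% of all genes that were higher at that p. Of these 9 were higher by 1.5-fold, against 1.57% of all genes, while none had an adjusted p under 0.05. The median log2 difference was 0.45, against -0.01 over all genes tested. Without KDM5C-KD2 the median was 0.43, and 7 members were higher without overlap, against 5.89% of all genes in that setting. In it 10 members were higher at an unadjusted limma p under 0.05, which 685 of 11774 genes reached in either direction. With sgRNA1 lines alone the median was 0.23 and with sgRNA2 lines alone 0.63, and whether the guides differ was not tested.

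AKR1B1, the aldose reductase that turns glucose into sorbitol, had the smallest p of the list, at 256, 214 and 169.9 FPKM without and 464, 391, 341 and 339.5 FPKM with a TRIM11 guide. Every line with the guide was at least 1.33 times the Control level, and the log2 difference was 0.79 ± 0.12, with 0.70 to 0.87 when 1 library was left out. Its relative AKR1B10, which reduces retinal, was at 1.71, 1.59 and 1.25 against 4.35, 2.83, 1.89 and 3.89 FPKM. EPHX1, the microsomal epoxide hydrolase, was at 33.2, 37.8 and 20.1 against 49.5, 57.2, 54.6 and 60.1 FPKM, so the 4 lines were tightly grouped above the 3 (log2 difference 0.88 ± 0.21). HMOX1, which degrades heme, was at 8.22, 9.33 and 9.51 against 10.9, 15.6, 12.1 and 12.7 FPKM, and thioredoxin, TXN, at 401, 402 and 377 against 423, 490.1, 461 and 533 FPKM. Both were separated by small steps, with log2 differences of 0.46 ± 0.14 and 0.28 ± 0.10.

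Other members were high with the guide but also in KDM5C-KD1. The quinone reductase NQO1 was at 29.2, 66.2 and 34.6 against 47.4, 92.0, 90.5 and 115 FPKM, so that KDM5C-KD1 was above TRIM11-KD1 (log2 difference 1.11 ± 0.29). GCLM, the modifier subunit of the enzyme that begins glutathione synthesis, was at 11.3, 21.5 and 10.5 against 20.1, 24.7, 22.9 and 23.7 FPKM. TXNRD1, thioredoxin reductase, was at 269, 438 and 322 against 424, 546, 488 and 484 FPKM. In each of these 3 genes Control was below all 4 lines with a TRIM11 guide and KDM5C-KD1 was not.

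**Figure D2:**
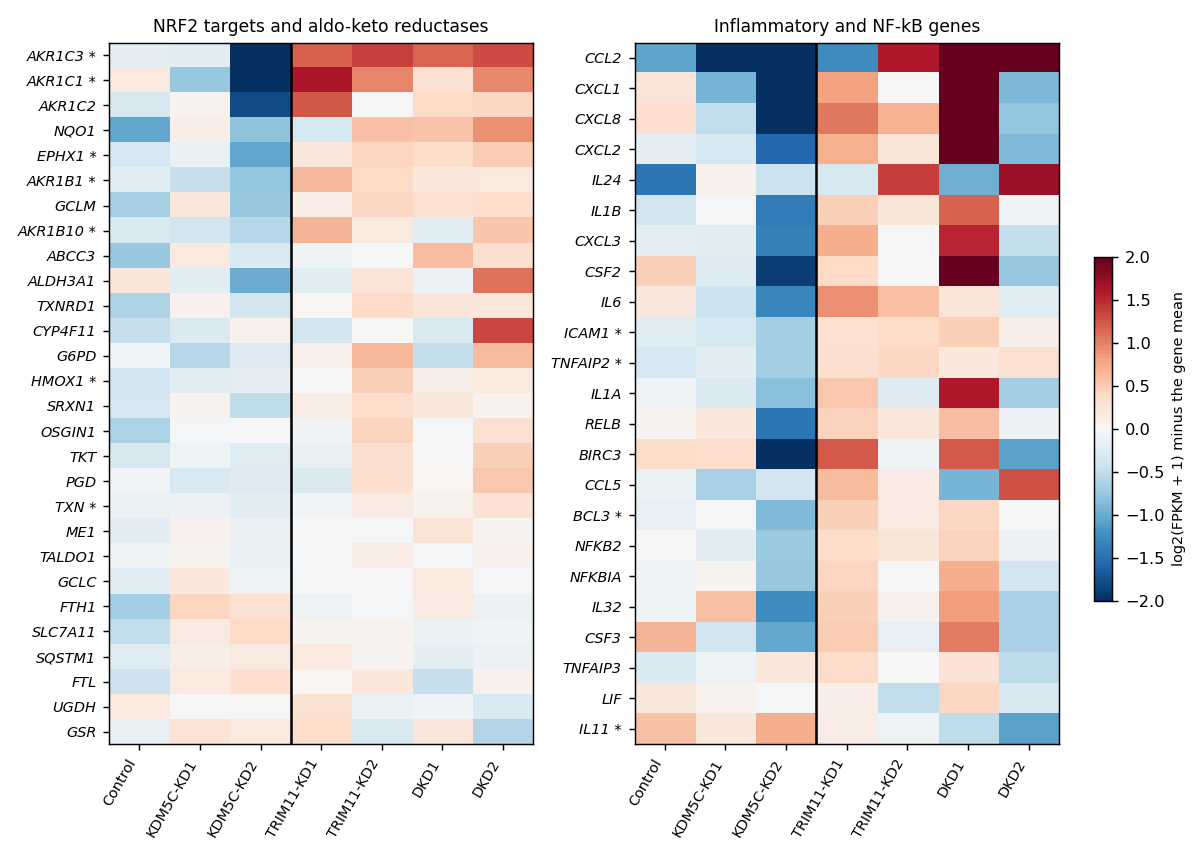
Level of each tested member of 2 gene lists (rows) in each library (columns), as log2(FPKM + 1) minus the mean of the gene over the 7 libraries, with the colours clipped at -2 and 2. The black line parts the 3 lines without from the 4 lines with a TRIM11 guide and an asterisk marks genes that do not overlap; 7 of 28 members are marked on the left and 4 of 23 on the right.

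Inflammatory cytokines and NF-kappaB targets had a median of 0.69 on the log2 scale over 23 tested genes. Of these 21 were above 0, against 5681 of all 11775 genes. The list holds genes that the study chose on these libraries, IL1A, IL6 and CXCL1 among them. Its median and counts are therefore no independent evidence of a direction. Of the 23, 3 did not overlap and were higher and 1 was lower (17.4% in all, against 8.82% of all genes). An unadjusted limma p under 0.05 was reached by 7 higher genes and 1 lower gene, against 5.25% and 5.55% of all genes. The median was 0.47 without KDM5C-KD2, in which most of these genes were at their lowest, 0.90 with sgRNA1 lines alone and 0.27 with sgRNA2 lines alone. DKD1 and KDM5C-KD2 thus stood at the ends of many of these genes.

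ICAM1, the adhesion receptor that leukocytes bind, did not overlap, at 59.5, 54.7 and 43.5 FPKM without and 87.1, 92.7, 98.0 and 76.9 FPKM with the guide. Its means were 52.6 ± 8.20 (SD, n = 3) and 88.7 ± 9.01 (SD, n = 4), and the log2 difference was 0.72 ± 0.13. TNFAIP2, a gene induced by tumor necrosis factor, was at 34.0, 36.8 and 26.6 against 53.7, 57.6, 49.7 and 53.1 FPKM, with the same log2 difference of 0.70 in TRIM11-KD against Control and in DKD against KDM5C-KD. BCL3, an atypical IkappaB protein, was at 24.0, 26.8 and 14.2 against 38.0, 30.9, 36.3 and 27.0 FPKM, where DKD2 and KDM5C-KD1 nearly met.

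The secreted factors overlapped. IL6 was at 113, 72.5 and 39.3 against 185, 149.7, 116 and 83.1 FPKM and IL1B at 7.29, 9.44 and 3.08 against 13.8, 11.6, 23.3 and 9.01 FPKM, and for both DKD2 was below the highest line without the guide. CXCL8, a neutrophil chemoattractant, was at 32.8, 18.0 and 2.65 against 54.4, 42.0, 110.1 and 14.4 FPKM, CXCL1, a related chemokine, at 4.82, 1.56 and 0.0749 against 7.51, 3.85, 37.5 and 1.63 FPKM. For both chemokines DKD1 was the highest and DKD2 the lowest of the 4 lines. CCL2, which attracts monocytes, was listed at 2.82, 0.684 and 0 against 2.32, 23.1, 112 and 34.2 FPKM, with TRIM11-KD1 below Control and the other 3 lines far above it. IL11, a cytokine of the IL6 family, was the exception that was lower, at 117, 90.1 and 128 against 86.3, 72.0, 54.1 and 36.2 FPKM, and did not overlap (log2 difference -0.98 ± 0.22). The 6 inflammation genes that the study names and that passed the filter were all above 0, with a median of 1.10, and 0 of them were without overlap. The median was 0.72 without KDM5C-KD2, 1.91 with sgRNA1 lines alone and 0.26 with sgRNA2 lines alone. These were chosen by the study on these libraries and are no independent evidence of a direction.

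Of 21 antigen presentation genes 3 did not overlap and were higher and 1 was lower, 19.0% in all against 8.82% of all genes, with a median of 0.08. HLA-B, a class I heavy chain, was at 159, 148 and 78.1 against 237, 208, 215 and 189.8 FPKM, and HLA-F, a nonclassical class I gene, at 8.77, 7.84 and 3.75 against 15.6, 13.1, 10.02 and 11.4 FPKM. Reads of HLA genes can be shared among family members. Of 33 interferon response genes 2 (6.06%) did not overlap, both higher, against 4.17% of all genes higher and 8.82% in either direction. These were the RNA sensor IFIH1 at 2.45, 2.94 and 2.63 against 5.30, 5.54, 3.27 and 6.55 FPKM and the GTPase MX2 at 1.75, 1.70 and 1.82 against 3.19, 2.64, 2.23 and 3.35 FPKM, and the median of the list was 0.11. CD14, a receptor for bacterial lipopolysaccharide and the 1 blood cell marker above 1 FPKM, did not overlap either. It was at 1.44, 1.27 and 1.15 against 1.79, 2.58, 5.24 and 4.53 FPKM. The summed blood cell markers, with CD14 the largest part, were at 2.27 to 5.44 FPKM with a TRIM11 guide and 1.56 to 2.38 without. PTPRC and LYZ were highest in lines without the guide, at 0.979 FPKM in KDM5C-KD2 and 0.687 FPKM in Control. The part of blood cell markers in these results was not tested. In bulk libraries, fewer cells that express a gene and less RNA per cell cannot be told apart.

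Proteasome genes differed in small steps. The proteasome degrades the proteins that ligases such as TRIM11 mark, and 6 of its 34 tested genes (17.6%) did not overlap and were higher while 0 were lower, against 4.17% and 4.65% of all genes. An unadjusted limma p under 0.05 was reached by 1 of the 34, which was higher, against 5.25% of all genes that were higher at that p. USP14, a deubiquitinase bound to the proteasome, was at 32.8, 31.1 and 27.3 against 32.9, 38.4, 35.2 and 46.3 FPKM, and PSMD14, the deubiquitinase of its lid, at 72.4, 68.8 and 59.6 against 74.3, 81.9, 79.6 and 88.8 FPKM. Their log2 differences were 0.32 ± 0.14 and 0.28 ± 0.11, and in both TRIM11-KD1 lay close to Control. The list median was 0.04, with -0.07 for TRIM11-KD minus Control and 0.13 for DKD minus KDM5C-KD.

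**Figure D3:**
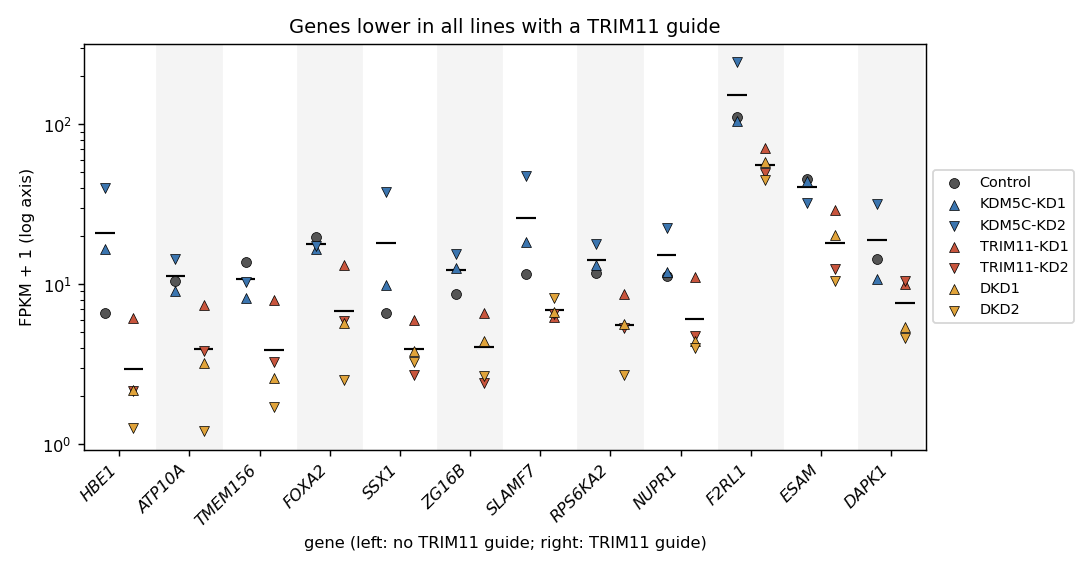
Level of the 12 genes with the largest lower difference among those that do not overlap (x axis), as FPKM + 1 on a log axis (y axis). Points are single libraries, the left points of a gene are the 3 lines without and the right points the 4 lines with a TRIM11 guide, and bars are means; TRIM11-KD1 is the highest of the 4 lines for 10 of these genes.

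The genes lower in every line with a TRIM11 guide were mostly of low to middle abundance. FOXA2, a pioneer transcription factor of endoderm, was at 18.8, 15.7 and 16.2 FPKM without and 12.2, 4.87, 4.74 and 1.497 FPKM with the guide. The 3 lines without lay close together, TRIM11-KD1 was the nearest of the 4 and DKD2 the farthest. Its log2 difference was -1.77 ± 0.40, with -1.15 from the sgRNA1 and -2.33 from the sgRNA2 lines alone. TMEM156, a transmembrane protein, was at 12.8, 7.21 and 9.24 against 6.98, 2.28, 1.59 and 0.700 FPKM, with TRIM11-KD1 just under KDM5C-KD1 (log2 difference -1.85 ± 0.34). ATP10A, a phospholipid flippase, was at 9.42, 8.03 and 13.3 against 6.41, 2.79, 2.21 and 0.200 FPKM in the same order of lines.

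KDM5C-KD2 was the highest line without the guide for 9 of the 12 genes, the exceptions being FOXA2, TMEM156 and ESAM. HBE1, embryonic epsilon globin, was at 5.61, 15.7 and 38.7 against 5.11, 1.16, 1.18 and 0.255 FPKM, so that Control and TRIM11-KD1 almost met. SSX1, a cancer-testis antigen, was at 5.58, 8.94 and 36.6 against 4.95, 1.71, 2.82 and 2.26 FPKM, and the log2 difference of -1.76 became -1.10 without KDM5C-KD2. SLAMF7, a receptor of the SLAM family, was at 10.6, 17.4 and 46.5 against 5.26, 5.49, 5.70 and 7.15 FPKM, with the 4 lines close together (-1.55 ± 0.36, and -1.09 without KDM5C-KD2). DAPK1, a kinase that promotes cell death, was at 13.3, 9.75 and 30.5 against 9.06, 9.42, 4.403 and 3.61 FPKM and went from -1.32 to -0.80 without that library. HBE1 and SSX1 belong to gene families of closely similar members, so their levels are uncertain.

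F2RL1, the protease-activated receptor PAR-2, was the most abundant of the 12, at 109, 103 and 243 FPKM without and 69.9, 48.8, 56.8 and 44.1 FPKM with a TRIM11 guide. All 4 lines were at least 1.47 times below all 3 (log2 difference -1.34 ± 0.32, -0.96 without KDM5C-KD2). ESAM, an adhesion molecule of tight junctions, was at 44.2, 43.2 and 31.2 against 28.1, 11.4, 19.3 and 9.39 FPKM, and here KDM5C-KD2 was the line without the guide nearest to the 4. RPS6KA2, the ribosomal S6 kinase RSK3, was at 10.7, 12.1 and 16.8 against 7.61, 4.29, 4.63 and 1.69 FPKM, and ZG16B, a secreted lectin, at 7.70, 11.6 and 14.3 against 5.62, 1.42, 3.39 and 1.67 FPKM. NUPR1, a stress-induced regulator of transcription, was at 10.2, 10.8 and 21.3 against 10.1, 3.70, 3.42 and 3.01 FPKM, with TRIM11-KD1 just below Control.

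The lower genes of smallest p differed by less but with little spread. HMGB3, a chromatin protein, was at 59.2, 50.6 and 53.1 against 45.5, 35.6, 29.1 and 30.2 FPKM, CD99L2, an adhesion protein, at 95.3, 83.0 and 92.1 against 72.7, 52.5, 47.1 and 40.0 FPKM, and DCBLD1, a membrane protein, at 7.80, 7.64 and 8.09 against 5.69, 4.25, 3.67 and 3.06 FPKM. In each, the order of the lines with a guide placed TRIM11-KD1 nearest to the 3. CSRP2, a LIM-domain protein, had a log2 difference of -0.70 ± 0.12 but overlapped, at 27.5, 16.6 and 17.6 against 17.9, 14.7, 9.12 and 11.4 FPKM, with its level also low in the KDM5C-KD lines.

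Cell migration was the process that the study followed in these lines, and 37 positive regulators of migration were tested. Of these 3 did not overlap and were lower, F2RL1 among them, and 1 was higher, against 4.65% and 4.17% of all genes. In all this was 10.8%, against 8.82% of all genes, and the median was -0.11. F2RL1 was chosen by the study on these libraries, so the counts of this list are in part no independent evidence. An unadjusted limma p under 0.05 was reached by 6 lower and 1 higher, against 5.55% and 5.25% of all genes. With a fold of 1.5 as well, 3 were lower, against 1.36% of all genes. PTK2, focal adhesion kinase, was at 62.9, 68.4 and 80.4 against 61.8, 42.1, 47.4 and 35.9 FPKM, with TRIM11-KD1 just below Control, and EGFR, the receptor of epidermal growth factor, at 59.98, 63.3 and 60.8 against 58.4, 49.3, 50.1 and 41.7 FPKM. The hyaluronan receptor CD44 was the higher member, at 237, 289 and 188 against 314, 347, 328 and 317 FPKM. MCAM, an adhesion molecule of the immunoglobulin superfamily that the study follows, was at 28.1, 39.3 and 76.6 against 24.2, 20.4, 32.2 and 18.6 FPKM and overlapped, because DKD1 exceeded Control (log2 difference -0.81 ± 0.30). All 8 tested migration genes of the study were below 0, with a median of -0.54 that was -0.26 without KDM5C-KD2, and F2RL1 alone did not overlap. The 2 parts of this difference ran in opposite directions, with a median of 0.12 for TRIM11-KD minus Control and -1.02 for DKD minus KDM5C-KD. They were chosen by the study on these libraries and are no independent evidence.

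**Figure D4:**
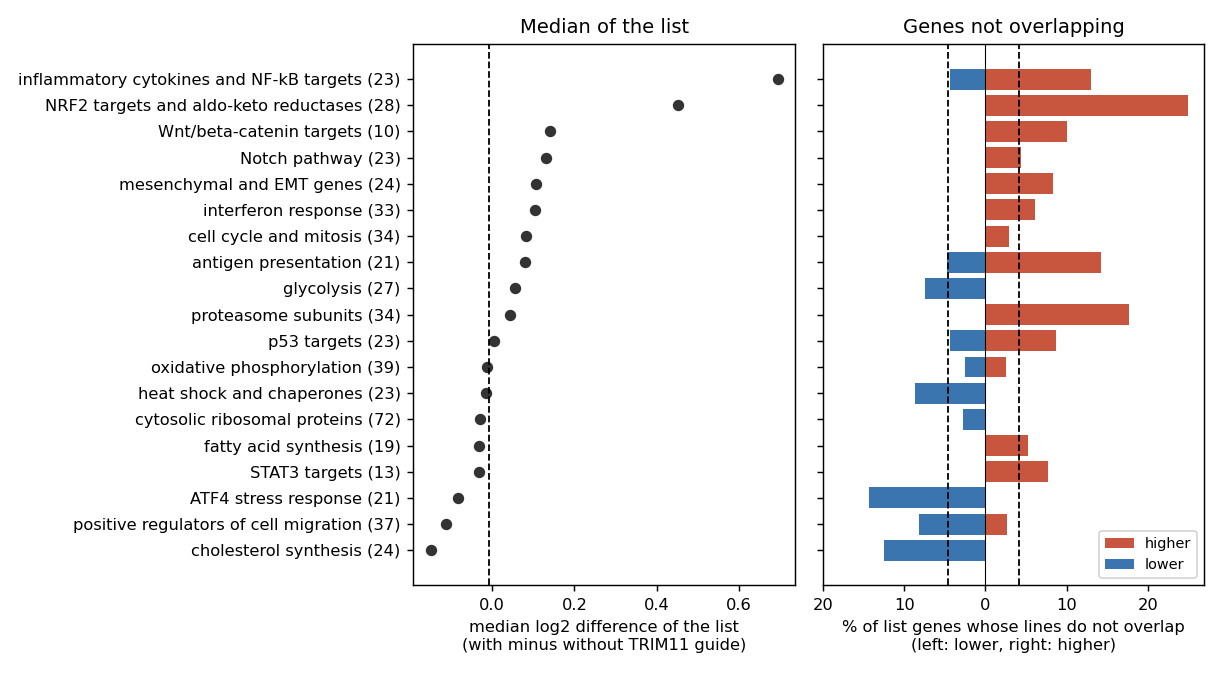
Left, median log2(FPKM + 1) difference, with minus without a TRIM11 guide, of 19 gene lists (tested genes in parentheses); right, the percentage of each list whose lines do not overlap, higher to the right and lower to the left. Dashed lines are the values of all 11775 genes. The NRF2 and inflammatory lists have the largest medians of these 19, 0.45 and 0.69. The lists were chosen with earlier results of these data known.

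Matrix and Notch genes were mixed. Of 24 mesenchymal and EMT genes 2 (8.33%) did not overlap and both were higher, THBS1 among them. The share over all genes was 4.17% higher and 8.82% in either direction. An unadjusted limma p under 0.05 was reached by 4 higher and 0 lower EMT genes, against 5.25% and 5.55% of all genes. With a fold of 1.5 as well, 3 were higher, against 1.57% of all genes. Among 23 Notch pathway genes NOTCH1 was the 1 member without overlap (4.35%), at 8.77, 7.54 and 7.06 against 9.91, 12.8, 10.5 and 12.2 FPKM. Its ligand JAG1 was at 26.6, 9.97 and 9.403 against 16.3, 6.98, 8.43 and 4.95 FPKM and overlapped, with Control the highest of the 7. Cholesterol synthesis had a median of -0.15 over 24 genes, which was -0.08 without KDM5C-KD2, and 3 members (12.5%) that did not overlap, all lower, against 4.65% of all genes. FDFT1, squalene synthase, was at 68.1, 63.0 and 80.1 against 57.6, 47.9, 49.0 and 46.7 FPKM, and MVD, mevalonate diphosphate decarboxylase, at 21.6, 18.7 and 24.5 against 16.6, 16.3, 17.6 and 17.4 FPKM. The third was the regulator SREBF2.

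The 7 lines give the difference in 2 ways that share no library, as TRIM11-KD minus Control and as DKD minus KDM5C-KD. Across the 11775 genes these 2 differences had a Pearson r of 0.19 and the same sign in 55.5% of genes, and genes are not independent replicates. Single DKD lines were then set against KDM5C-KD2 alone and not the mean of the KDM5C-KD lines. With sgRNA2 in both, the r was 0.32 and the same sign 61.2%, while with sgRNA1 in both it was 0.04 and 52.8%. With different guides, TRIM11-KD1 beside DKD2 gave 0.08 and 49.9%, and TRIM11-KD2 beside DKD1 gave 0.04 and 52.7%. Libraries with the same guide share that guide, and whether the 2 guides differ was not tested. Of 313 genes at least 1.5 times higher in both TRIM11-KD lines than in Control, 104 (33.2%) were higher in both DKD lines than in both KDM5C-KD lines, against 21.2% of all genes. Of 251 genes lower by as much, 57 (22.7%) were lower in both DKD lines, against 22.0% of all genes.

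**Figure D5:**
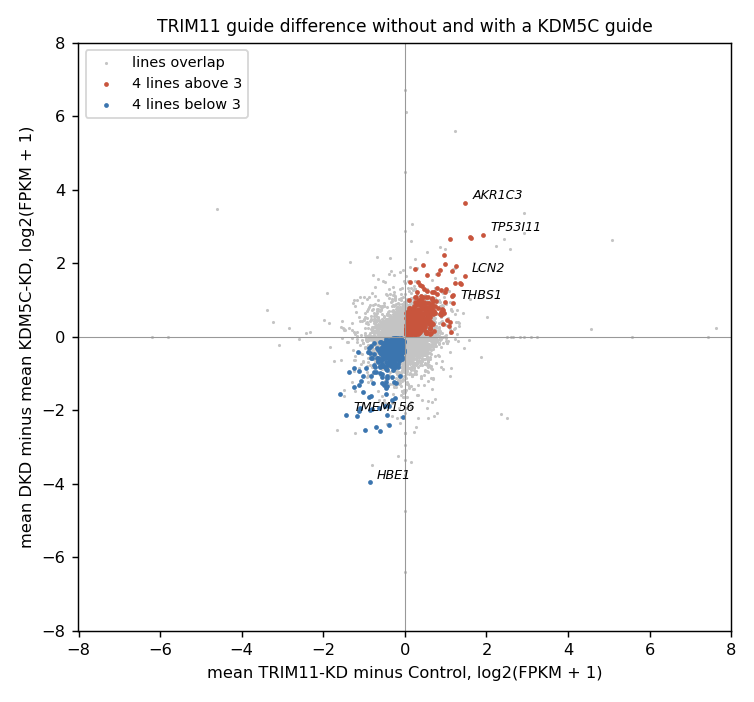
TRIM11 guide difference in lines without a KDM5C guide (x axis, mean of TRIM11-KD minus Control) against that in lines with one (y axis, mean of DKD minus mean of KDM5C-KD), both on the log2(FPKM + 1) scale, for 11775 genes. Coloured points do not overlap between the 4 and 3 lines, 491 higher and 547 lower, and fall in 2 quadrants by the rule that chose them.

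Single libraries often stood at the edge of the 1038 genes. KDM5C-KD2 was the line without a guide farthest from the 4 in 679 of the 1038 genes (65.4%), and TRIM11-KD1 was the line with a guide nearest to the 3 in 521 (50.2%). Both sgRNA2 lines lay farther from the 3 than both sgRNA1 lines in 415 genes (40.0%), and the reverse held in 78 (7.51%). When the fitted KDM5C term was taken off first, 1823 genes (15.5%) did not overlap, 872 higher (7.41%) and 951 lower (8.08%). Just inside the rule were SCG5 and C14orf159, with 1.0001 between the nearest lines, and just outside were SPIRE1 and PARP4.

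The interaction of the TRIM11 and KDM5C guides asks whether the TRIM11 difference was the same with and without a KDM5C guide. A limma adjusted p under 0.05 was reached by 2 genes (0.0170%), the small RNAs SNORA61 and SNORA8, and a p under 0.05 before adjustment by 660 (5.61%), of which 358 had a higher (3.04%) and 302 a lower (2.56%) difference in the lines with a KDM5C guide. Both were listed at 72.0 and 55.4 FPKM in Control and at 0 in the other 6 libraries, so they rest on the 1 Control library. SNORA4 was listed above 0 in both TRIM11-KD lines alone, at 30.6 and 69.1 FPKM, and SNORD97 in both KDM5C-KD lines alone, at 16.7 and 39.03 FPKM. The longer genes with the smallest interaction p in each direction, MARCKSL1 and L3HYPDH, did not pass the test after adjustment. MARCKSL1, an actin-linked substrate of protein kinase C, was at 43.9, 22.1 and 17.5 against 22.5, 21.4, 30.7 and 27.3 FPKM, so that the TRIM11 guide went with a lower level beside Control and a higher one beside the KDM5C-KD lines. L3HYPDH, a dehydratase of hydroxyproline, showed the opposite order, at 20.3, 41.2 and 47.4 against 31.2, 25.6, 17.1 and 17.0 FPKM. MYLK, the myosin light chain kinase named by the study, was at 36.5, 80.9 and 119.9 against 52.9, 50.3, 48.8 and 55.3 FPKM. Its log2 differences were 0.49 without and -0.91 with a KDM5C guide (interaction -1.40 ± 0.31, limma unadjusted p = 0.00399, adjusted p = 0.870). The study chose its migration genes on these libraries, as higher in KDM5C-KD and rescued in DKD. The interaction of MYLK is therefore no independent evidence.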

How the data were processed

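Per the study's methods and the labels, poly(A) RNA was sequenced as non-directional paired reads, trimmed with Cutadapt, mapped to hg19 with HISAT2 and quantified with Cufflinks. The submitters' processing notes also list Bowtie 0.12.2. The authors deposited FPKM values with 1 column per library. These carry no read numbers, so depth is unknown, and without strand a gene cannot be told from an antisense partner. Of 26006 rows, 27 with symbols turned into dates were dropped and rows sharing a symbol were reduced to the one with the highest mean, leaving 24523 symbols. Genes with a mean of at least 1 FPKM (11775) were fitted as log2(FPKM + 1), which understates changes of low genes, with limma 3.58.1 in R 4.3.3 (lmFit and eBayes with a trend, terms for TRIM11 and KDM5C guides, Benjamini-Hochberg adjustment), tested on simulated data first. The fit weights DKD minus KDM5C-KD more than TRIM11-KD minus Control. Named genes were the 12 with the largest difference in each direction without overlap and a mean of at least 5 FPKM (ribosomal protein, small RNA and clone symbols left out), the 5 with the smallest p, the 3 with the smallest interaction p, 2 members per list, and TRIM11, KDM5C and the genes of the study. Gene lists were written from general knowledge, and members and lists were chosen with earlier results of these data known. Positions are from GENCODE on hg19 and promoters from RefSeq on GRCh38.p14. Alternatives changed the pseudocount, filter, scaling, covariates and libraries. The 6 mouse tumor libraries were not used here. Results for some genes are not reported here.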

Additional observations from a re-analysis of the deposited data

Results flagged for a closer look

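In 4 of the 80 genes looked at, 1 of the 4 lines with a TRIM11 guide lay far from the other 3, and by chance about 5% of such groups show a gap of this size. NUPR1 was at 10.1 FPKM in TRIM11-KD1, and the gap to the next line took 0.901 of the range of the 4 lines. GDF15, a stress-induced cytokine, was at 16.3 FPKM in TRIM11-KD1, with a gap of 0.881 of the range. GRAMD1B was at 1.25 FPKM in TRIM11-KD1, with a gap of 0.869 of the range. CXCL1 was at 37.5 FPKM in DKD1, with a gap of 0.836 of the range.

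The TRIM11 guide difference differed between lines with and without a KDM5C guide for 2 small nucleolar RNAs. The interaction was 6.19 on the log2(FPKM + 1) scale for SNORA61 and 5.82 for SNORA8 (limma adjusted p = 0.00705 for both). Each was listed at 0 in 6 of the 7 libraries, so both values rest on Control alone.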

How the results depend on the processing

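The difference was refitted for 80 genes under 22 other settings, and 9 of the 1751 values changed sign, in TRIM11, KDM5C and MARCKSL1. Many of the 80 were chosen for a large difference, a small p or lines that do not overlap. The sign of such genes can hardly change, so the low count says little about the processing. TRIM11 mRNA was at 0.15 with sgRNA1 lines alone, and between -0.30 and 0.064 without 1 library. KDM5C was at 0.046 with no KDM5C covariate, 0.022 with sgRNA2 lines alone, and -0.10 (without DKD2) to 0.025 (without DKD1) when 1 library was left out. MARCKSL1 was at 0.53 without Control, with or without the replicate block, 0.022 without TRIM11-KD1 and 0.045 without TRIM11-KD2. The count of genes at an adjusted p under 0.05 was 13 with sgRNA2 lines alone, among them C3 (adjusted p = 0.041), TMEM156 (0.041), ZG16B (0.0498) and ESAM (0.04996), and 0 to 1 without 1 library. It was 1 without TRIM11-KD1 (GRAMD1B) and 1 without DKD1 (SNORA63). These p-values are limma's, and the cause was not tested.

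Genes with a fold of 1.5 and an unadjusted p under 0.05 numbered 105 higher and 95 lower with a minimum of 5 FPKM, where fewer genes were tested, 116 and 68 with sgRNA1 lines alone, and 366 and 436 with sgRNA2 lines alone. Without 1 library they numbered 87 (KDM5C-KD2) to 319 (Control) higher and 91 (DKD2) to 327 (Control) lower. Genes without overlap numbered 2162 with sgRNA1 and 4074 with sgRNA2 lines alone, 1187 to 2465 without 1 library, 1823 after the KDM5C term was taken off and 16 at a gap of 1.5 times, the last 2 chosen after seeing the data. Fewer lines overlap less often by construction. Another scaling kept 984 of the 1038 genes under median ratio factors and 953 under equal totals. The interaction gave 0 genes with a pseudocount of 0.1 or 0.5, a minimum of 5 FPKM or TRIM11 guides as separate terms, 4 with KDM5C guides as separate terms and 3 to 9 without 1 library. It could not be fitted without Control or with the replicate block.

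The numbers 1 and 2 in the labels name guides. TRIM11-KD and DKD lines of the same number carry the same TRIM11 guide, the number of a KDM5C-KD line names a KDM5C guide, and no label ties a number to a shared culture or day. Deviations of same-numbered lines had r = 0.089 between KDM5C-KD and TRIM11-KD, 0.27 between KDM5C-KD and DKD and 0.37 between TRIM11-KD and DKD. The number was also fitted as a replicate block over the 6 knockdown libraries. With it 415 genes were higher and 387 lower at a fold of 1.5 and an unadjusted limma p under 0.05. In that setting 2465 genes did not overlap, and 0 had an adjusted p under 0.05. The depth of the libraries is unknown, so no counting error is given, and 1 library per line limits every value.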

Other observations

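Over all genes 4.17% were higher and 4.65% lower without overlap, 8.82% in either direction. Of 27 glycolysis genes 2 (7.41%) did not overlap and were lower and 0 were higher. HK2, the hexokinase that traps glucose in the cell, was at 25.7, 27.2 and 31.6 FPKM in Control, KDM5C-KD1 and KDM5C-KD2, against 25.1, 20.5, 17.3 and 16.8 FPKM in TRIM11-KD1, TRIM11-KD2, DKD1 and DKD2, with a log2 difference of -0.52 ± 0.15 (SE). Of 39 oxidative phosphorylation genes 1 was higher and 1 lower without overlap, and SDHA, the flavoprotein of succinate dehydrogenase, was the higher one, at 103, 104 and 82.2 against 111, 141, 124 and 141 FPKM. Of 72 cytosolic ribosomal protein genes 2 were lower without overlap, RPS12 among them at 1613, 1496 and 2073 against 1359, 1326, 1186 and 1285 FPKM, and the median of the list was -0.03.

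Of 21 genes of the ATF4 stress response 3 (14.3%) were lower without overlap and 0 higher, against 4.65% and 4.17% of all genes. The median of the list was -0.08 on the log2 scale. CHAC1, which degrades glutathione, had the largest difference of the list but overlapped, at 8.78, 4.07 and 4.22 against 5.46, 2.55, 2.98 and 1.67 FPKM, with KDM5C-KD1 and KDM5C-KD2 between the TRIM11-KD lines. Of 23 heat shock and chaperone genes 2 (8.70%) were lower without overlap and 0 higher, against 4.65% and 4.17% of all genes. HSPB8, a small heat shock protein, was at 11.3, 16.4 and 31.6 against 9.405, 9.84, 6.996 and 11.3 FPKM, where DKD2 and Control nearly met. HSPD1, the mitochondrial chaperonin, was at 196, 225 and 218 against 223, 267, 294 and 315 FPKM and overlapped. Of 34 cell cycle genes 1 (2.94%) did not overlap, against 8.82% of all genes. MCM6, a subunit of the replicative helicase, overlapped, at 22.2, 24.3 and 28.4 against 20.2, 32.99, 40.0 and 56.3 FPKM. TRIM11-KD1 was the lowest of the 7 and DKD2 the highest.

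Of 23 p53 targets 2 were higher without overlap, TP53I11 and FAS, and 1 was lower, SESN1 (13.0% in all, against 8.82% of all genes). Among 10 Wnt/beta-catenin targets 1 was higher (CD44), as was 1 of 13 STAT3 targets (BCL3) and 1 of 19 genes of fatty acid synthesis (ACSL1), with none lower. None of 5 metallothioneins and none of 5 tested neighbours of TRIM11 on chromosome 1 was without overlap, and the medians of these lists were -0.25 and -0.0011 on the log2 scale.

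Among genes under a mean of 5 FPKM, which the rule for named genes leaves out and which were chosen after their values were seen, GRAMD1B, a sterol transport protein, was at 0.572, 0.780 and 0.313 against 1.25, 9.24, 8.39 and 9.47 FPKM. TRIM11-KD1 was near the 3 lines without a guide, and the other 3 lines were far above them (log2 difference 2.26 ± 0.51). RGS4, a regulator of G protein signalling, was at 2.47, 2.1003 and 0.432 against 5.11, 6.78, 6.98 and 7.54 FPKM, and ACKR3, a scavenging chemokine receptor, at 1.99, 1.03 and 0.650 against 3.07, 3.63, 5.15 and 4.64 FPKM. BATF, a leucine zipper transcription factor, was lower, at 3.66, 3.997 and 9.12 against 1.97, 0.565, 2.39 and 0 FPKM.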
